A study of Drosophila melanogaster with 2 samples.

Results

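Chromosome 4 of Drosophila melanogaster, the dot chromosome or Muller element F, carried 280 of the 30000 candidate binding regions that the authors listed for the protein CG14965 on the dm6 genome build. Every entry of the list drawn from both replicates together (the pooled list) that lies on chromosome 4 was taken, and the entries on 2L, 2R, 3L, 3R and X served for comparison. The list is kept loose by design. It holds peaks and background, made as input for the irreproducible discovery rate procedure, which sets a threshold from how well ranks repeat between replicates. The resulting optimal list is made up of the 1302 entries of highest score in the pooled list, of which 7 lie on chromosome 4. Being optimal is therefore a cut in pooled score over the whole genome, and a single optimal peak need not rank high in each replicate.

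The animals were embryos of both sexes, 0 to 24 h old, from a transgenic line that stably expresses CG14965 with green fluorescent protein (GFP) at its C-terminus. Chromatin was sonicated to fragments of 200 to 800 bp, and DNA bound by the tagged protein was recovered with an antibody against GFP and sequenced (ChIP-seq). There was 1 group with 2 samples, biological replicates 3 and 4, taken as separate biosamples of 1 line. No untagged embryos, other stages or other genotypes are among the samples. The values therefore describe a tagged protein in whole embryos, averaged over all cell types and the whole of embryonic development. With 2 samples of 1 group no test over samples can be made, so arms are compared by counts and by shares with their 95% Wilson intervals. These intervals cover counting error only, and no difference between arms was tested. Each region carries a signal score, the authors' value for that region. Its scale is not given in the sources used here, so scores are compared only within a list, and the pooled list and the list of each replicate, which hold 30000 entries each, are set beside each other by rank. Numbers of reads are not in the files, and the depth behind each region is unknown.

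As background, chromosome 4 is the smallest autosome of the fly. Much of it is packaged like heterochromatin, with heterochromatin protein HP1a and the chromosome-specific protein POF spread along its length, and meiotic crossing over is normally absent. Remnants of transposons, above all INE-1 and 1360, lie between and within its genes. Its genes are transcribed all the same, and they include well-studied regulators of development such as cubitus interruptus (ci), pangolin (pan), eyeless (ey), twin of eyeless (toy) and shaven (sv).

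The sequences at the summits of 6 of the 7 optimal peaks are shown first, since these peaks carry the strongest signals of the chromosome and the later results refer to them. Each is the plus strand of Release 6 (dm6), 50 bp on either side of the summit, 5′ to 3′. Capitals mark a word that is within 1 mismatch of AGATGGCG on either strand, a word of the kind bound by the insulator protein CTCF.
Peak 1, chr4:424766-424866: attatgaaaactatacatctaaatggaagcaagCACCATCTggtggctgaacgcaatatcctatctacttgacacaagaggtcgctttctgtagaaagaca
Peak 2, chr4:404479-404579: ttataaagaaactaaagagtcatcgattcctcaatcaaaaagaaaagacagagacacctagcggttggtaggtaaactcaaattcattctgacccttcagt
Peak 3, chr4:497857-497957: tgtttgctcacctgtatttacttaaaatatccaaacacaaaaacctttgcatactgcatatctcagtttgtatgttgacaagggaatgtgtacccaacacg
Peak 4, chr4:406916-407016: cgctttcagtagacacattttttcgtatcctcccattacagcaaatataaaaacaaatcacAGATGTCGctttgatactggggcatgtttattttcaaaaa
Peak 6, chr4:982924-983024: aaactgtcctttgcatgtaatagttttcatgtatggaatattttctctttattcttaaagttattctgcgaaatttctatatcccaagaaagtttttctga
Peak 7, chr4:68801-68901: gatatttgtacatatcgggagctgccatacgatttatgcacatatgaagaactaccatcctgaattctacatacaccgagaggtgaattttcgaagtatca
Peak 5 lies in a 3′ untranslated region and its sequence is not printed. Peaks 1 and 4 hold a marked word, which differs from AGATGGCG by C7T in peak 1, read on the minus strand, and by G6T in peak 4, with positions counted from 1 at the 5′ end of the word. Such a match was in 8.387% of all 30000 windows, in 12.37% of those in the optimal list and in 4.286% of those on chromosome 4. The search with 1 mismatch was added after the data were seen. The longest word shared by any pair of the printed windows, on either strand, was ATGAAAACTAT in peaks 1 and 6, and it occurs in 7 of the 30000 windows of the pooled list. Peaks 1 and 4 share GTCGCTTT, which occurs in 0.37% of all windows and in 0.2304% of those in the optimal list.

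The strongest chromosome 4 peak was among the strongest of the genome. Peak 1 (chr4:424458-425100) ranked 3 in the pooled list, 3 in replicate 3 and 3 in replicate 4, with scores of 3903, 2198 and 1725. It lies in the long intergenic stretch between dati, a zinc finger gene, and lgs (legless), the co-factor that links Armadillo to Pygopus in Wnt signalling. The nearest annotated start is that of the long noncoding RNA lncRNA:CR43437, 1251 bp away. The same stretch holds 2 further optimal peaks. Peak 2 (chr4:404344-404669) had a score of 604.3 in the pooled list, where it ranked 54, with 369.5 and rank 51 in replicate 3 and 245.4 and rank 56 in replicate 4. Peak 4 (chr4:406878-407069) had 219.1 and rank 170, with 108.2 and rank 226 in replicate 3 and 108.3 and rank 147 in replicate 4. The pair lies 8924 and 11361 bp upstream of the start of dati, with the microRNA gene mir-9385 in between, 3764 and 6201 bp from the summits.

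Of the 4 remaining optimal peaks, 2 lie upstream of other transcription factor genes at a distance of several kb. Peak 3 (chr4:497689-498124) lies between Asator, a kinase gene, and zfh2, a zinc finger homeodomain gene, 3903 bp upstream of the zfh2 start. Its scores were 242 in the pooled list, 154.8 in replicate 3 and 82.31 in replicate 4, at ranks 148, 131 and 204. Peak 6 (chr4:982756-983191) lies between fuss, a Ski family gene, and toy, a Pax6 gene, and is 4485 bp upstream of the fuss start. Here the scores were 90.11, 59.16 and 33.61, at ranks 814, 703 and 1215.

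Peak 5 (chr4:1113107-1113542) lies where sv, a Pax2 gene, and Cals, which encodes calsyntenin, run towards each other. Its summit at 1113325 is in the 3′ untranslated region of Cals and just beyond the annotated end of sv at 1113317. It had scores of 116.3, 92.81 and 52.04 at ranks 512, 293 and 483. The region called in replicate 4, chr4:1112812-1113235, has its summit at 1113024, and that of replicate 3 is at 1113278. Both of these lie where sv and Cals overlap. Peak 7 (chr4:68633-69068) is the 1 optimal peak at a promoter, 475 bp upstream of pan, which encodes the TCF effector of Wnt signalling. The ribosomal protein gene RpS3A starts on its other side. Peak 7 had scores of 82.36, 42.8 and 25.11, at ranks 956, 1290 and 3172, the widest spread of ranks between replicates among the 7.

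All 7 optimal peaks overlapped an entry in each replicate, as did 1286 of the 1295 on the other arms. Of the 7, 6 ranked within the first 1302 in both replicates, and this share was not computed for the other arms. By location, 5 of the 7 (71.43%) were intergenic, beside 14.67% of the 1295 optimal peaks on the other arms, and 1 was at a promoter, where 45.25% of the others lay. Counts of 7 carry wide counting error, and this difference was not tested.

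**Figure D1:**
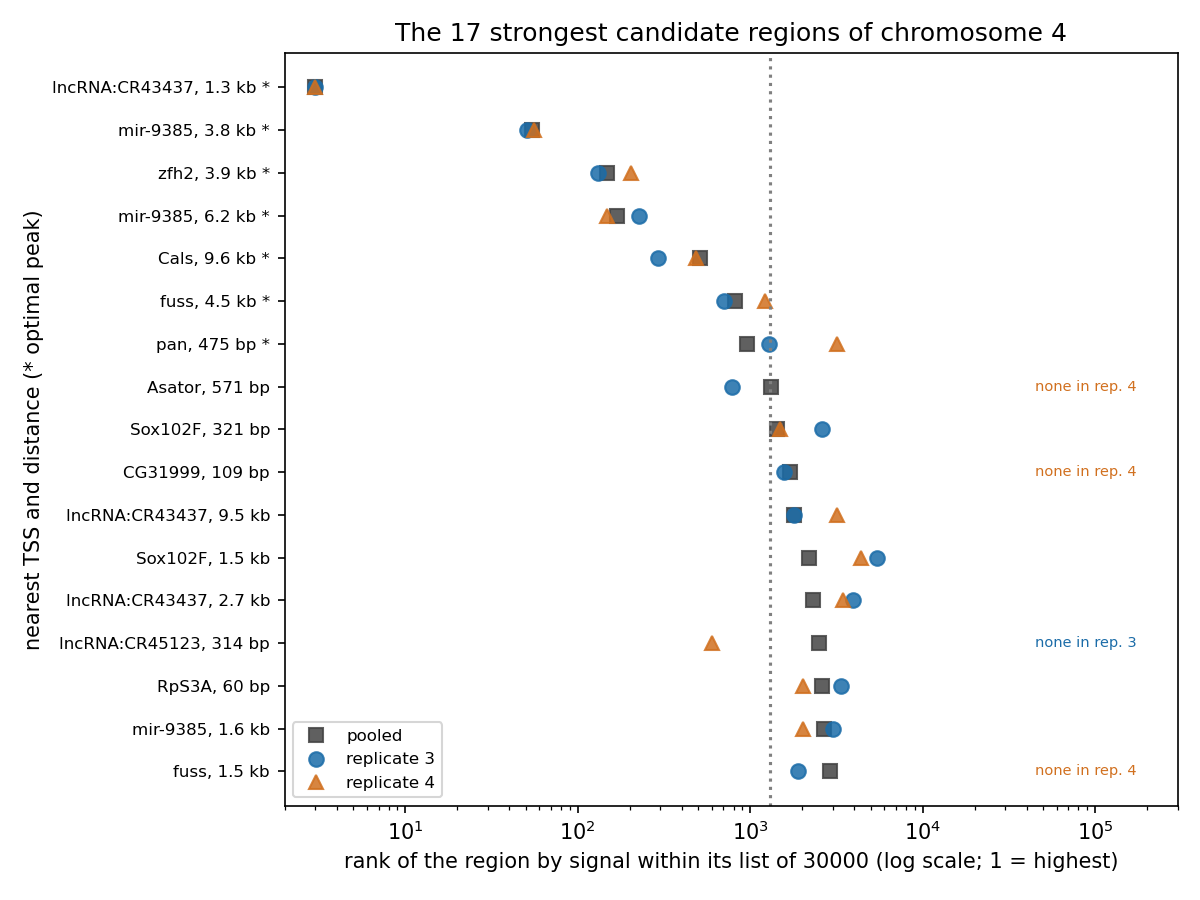
Ranks of the 17 highest-scoring chromosome 4 regions in the pooled list (squares), in replicate 3 (circles) and in replicate 4 (triangles), on a log axis where 1 is the highest score. The dotted line marks rank 1302, the length of the optimal list, and asterisks mark the 7 optimal peaks. Peak 1 sits at rank 3 in all lists, while 4 regions below the optimal list have no entry in one of the replicates.

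The lowest score of any optimal peak in the genome was 69.8, and the chromosome 4 region next in order lay just below it. That region, chr4:489347-489782, had a score of 69.31 and rank 1315 in the pooled list and 55.93 and rank 785 in replicate 3, 571 bp upstream of Asator, with no entry in replicate 4. A promoter of Sox102F, a Sox-type transcription factor gene, followed with scores of 66.19, 30.2 and 31.44 and ranks of 1430, 2614 and 1484. The promoter region of CG31999 had 59.9 in the pooled list and 38.65 in replicate 3, and none in replicate 4. The other 7 of the 10 regions directly below the optimal peaks had pooled scores of 47.04 to 58.27. They include 3 more in the stretch between dati and lgs, at 416341, 423135 and 402176, with entries in both replicates. The remaining 4 were at the RpS3A promoter (49.03), 1506 bp upstream of Sox102F (52.42), at the start of lncRNA:CR45123 (49.72, absent from replicate 3) and 1531 bp upstream of fuss (47.04, absent from replicate 4).

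The 41.35 kb between dati and lgs (395606 to 436956) held the largest cluster of optimal peaks on the chromosome, 3 of the 7. It held 20 pooled regions, 22 regions of replicate 3 and 21 of replicate 4. Of the 20, 13 overlapped an entry in both replicates, beside 31.07% of pooled regions on the chromosome and 41.63% of all. In terms of density the 20 made 483.7 pooled regions per Mb, beside 207.7 per Mb over the whole chromosome. Entries that overlap each other were counted separately, as were those at 416341 and 416551 and those at 402176 and 402377. Shorter gaps that flank other optimal peaks had higher densities, 534 per Mb between fuss and toy (6 regions) and 944.3 per Mb between RpS3A and pan (2 regions). These stretches were named after their peaks were seen, so the counts are descriptions. In bins of 100 kb fixed from the start of the chromosome, 400001 to 500000 held 40 pooled regions and 4 of the 7 optimal peaks, while the other 12 full bins held 11 to 28. This bin had the highest number in replicate 3 (36, beside 6 to 20 in the other full bins). In replicate 4 it held 37, beside 12 to 38. The gap between Asator and zfh2 held 4 pooled regions in 12.81 kb, or 312.1 per Mb. At the far end, the 76.37 kb beyond Cadps, the last protein-coding gene, held 2 pooled regions, none in replicate 3 and 2 in replicate 4.

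Over the whole chromosome, a smaller share of the candidate regions was in the optimal list than elsewhere. The 7 of 280 make 2.5% (95% Wilson interval 1.216 to 5.07), beside 4.34% of all 30000 regions and 4.03% to 5.255% on the other 5 arms taken singly. The interval includes the values of 4 of those arms. Among the first 1302 entries of the list of replicate 3 were 8 of its 201 chromosome 4 regions, or 3.98% (2.03 to 7.656). In replicate 4 they were 12 of 351, or 3.419% (1.966 to 5.88). Both shares lie within counting error of 4.34%. The pooled scores of chromosome 4 had a median of 25.52, where the other arms had 25.65 to 26.35, and their quartiles were 21.86 and 31.19, beside 22.26 and 33.45 on the other arms together.

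The replicates differed in how many chromosome 4 regions they held, more than on any other arm. Replicate 3 listed 201 and replicate 4 listed 351, a ratio of 1.746, while the ratio ran from 0.8499 on X to 1.095 on 2L. In density, chromosome 4 had 149.1 regions per Mb in replicate 3, below the 200.4 to 233.9 of the other arms. In replicate 4 it had 260.4 per Mb, above their 170.3 to 252.8. The pooled value of 207.7 lay inside their range of 187.5 to 239.1. Whether chromosome 4 held more or fewer regions than the rest of the genome therefore depended on the replicate.

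The overlap of pooled regions with the lists of the replicates showed the same split. Of the 280 regions, 87 (31.07%, 25.94 to 36.72) overlapped an entry in both replicates, beside 41.73% on the other arms together and 40.32% to 42.79% on each. Another 125 (44.64%, 38.93 to 50.5) had an entry in replicate 4 only, beside 24.28% to 29.08% on the other arms. Replicate 3 alone accounted for 50 (17.86%), beside 24.78% elsewhere, and 18 (6.429%) had an entry in neither, beside 6.11%. Where both replicates had an entry, their scores ranked as they did elsewhere. Spearman's rho across the 87 regions was 0.4216, beside 0.4371 across 12401 on the other arms. Outside the optimal list it was 0.2658 across 80 and 0.2534 across 11115. These regions share their libraries and are no independent replicates. Some pooled regions also overlap each other and match the same replicate entries, so some pairs of scores were counted more than once.

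**Figure D2:**
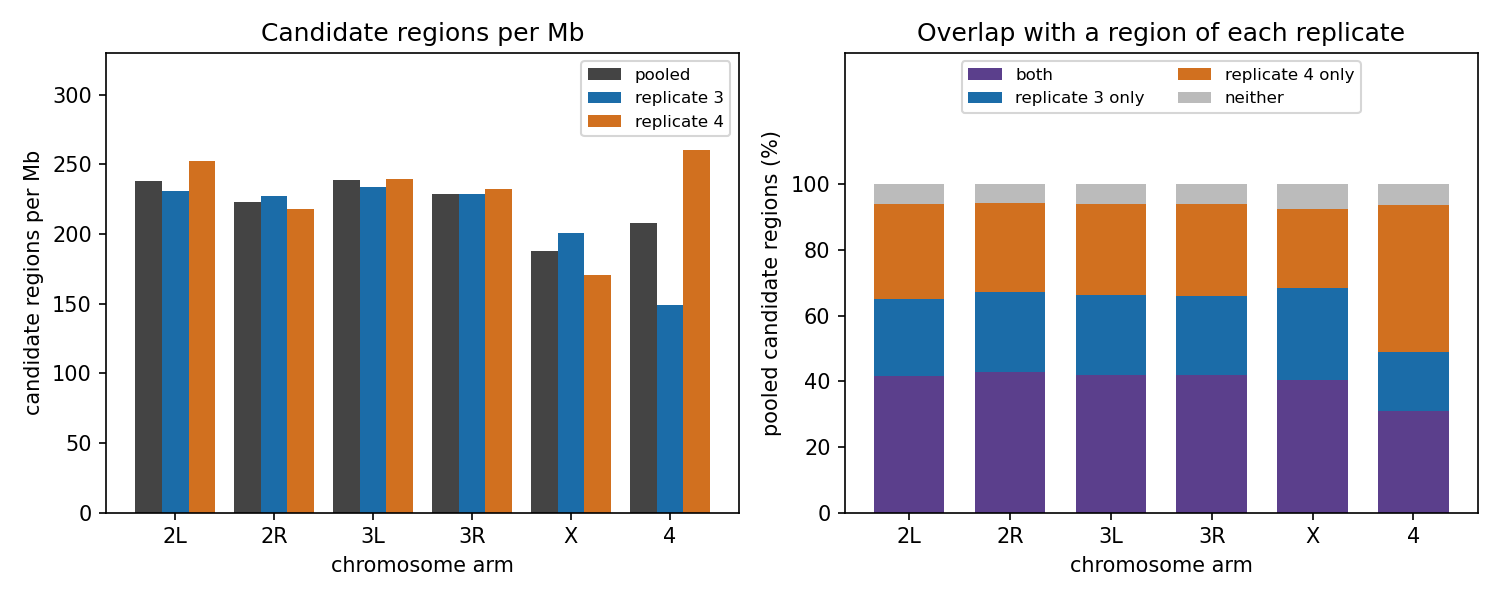
Candidate regions per Mb by arm in the pooled list and in each replicate (left), and the share of pooled regions that overlap an entry of both replicates, of one, or of neither (right). Chromosome 4 runs from 149.1 per Mb in replicate 3 to 260.4 in replicate 4, and 44.64% of its pooled regions have an entry in replicate 4 only.

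Among the first 1302 entries of replicate 4, 6 of the 12 on chromosome 4 (50%, 25.38 to 74.62) were not optimal, beside 23.5% of all 1302. Of the 12, 5 (41.67%, 19.33 to 68.05) were neither optimal nor in replicate 3, beside 6.07% of all. The highest was at lncRNA:CR45123 with a score of 46.09 at rank 603. Next came a region over a HeT-A element, a telomeric retrotransposon, at chr4:1319118-1319541, beyond the last gene (41.04, rank 748). Then followed chr4:411790-412213 between dati and lgs (rank 862), a coding part of Tdg, a DNA glycosylase gene (rank 964), and an sv intron that holds an INE-1 copy (rank 999). A region 18 bp upstream of anne ranked 1208 in replicate 4 and 23329 in replicate 3. In replicate 3, 1 of 8 such entries was not optimal (12.5%, beside 14.3% of all 1302), the region upstream of Asator described above. It had no entry in replicate 4. Entries neither optimal nor in replicate 4 made up 4.92% of all 1302.

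By location in the annotation, chromosome 4 had fewer pooled summits at promoters (within 500 bp of a transcription start) and more in coding sequence than other arms had. Promoters held 43 of 280 summits (15.36%, 11.61 to 20.05), beside 22.6% to 27.01% on the other arms. Coding exons held 77 (27.5%, 22.6 to 33.01), beside 19.25% on the other arms together. Introns held 89 (31.79%) and intergenic sequence 52 (18.57%), beside 34.56% and 16.54%. The last 19 summits were in 3′ untranslated regions (12), 5′ untranslated regions (4) and noncoding exons (3). The make-up of the chromosome differs as well, since promoters cover 10.74% of its bases and coding exons 18.77%, against 13.57% and 13.67% elsewhere. Relative to bases, promoter summits were 1.43 times as frequent as their share of the sequence, below the 1.648 to 2.014 of the other arms. Coding summits of the pooled list were 1.465 times as frequent, within their 1.272 to 1.478.

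The promoter share, too, differed between the replicates. It was 25.37% (51 of 201, 19.86 to 31.81) in replicate 3 and 9.687% (34 of 351, 7.015 to 13.23) in replicate 4. On the other arms together replicate 3 also had the higher share, 29.16% against 19.39%. In replicate 3 chromosome 4 lay just below the range of the other arms (26.67% to 31.93%), and its interval includes most of that range. In replicate 4 it lay well below theirs (18.25% to 21.21%). The higher coding share was seen in replicate 4, with 29.06% (102 of 351, 24.56 to 34.02) beside 19.5% on the other arms together. In replicate 3 the coding share was 18.91% (38 of 201, 14.09 to 24.88), near the 18.77% of bases. The other arms together had 17.33% there, which lies within that interval. Among the pooled regions, 9 of the 125 with an entry in replicate 4 only were at promoters (7.2%) and 38 were coding (30.4%). Of the 50 with an entry in replicate 3 only, 28% were at promoters and 20% coding. The other arms had the same order, with 14.25% at promoters and 22.82% coding for replicate 4 only, and 29.5% and 17.88% for replicate 3 only.

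**Figure D3:**
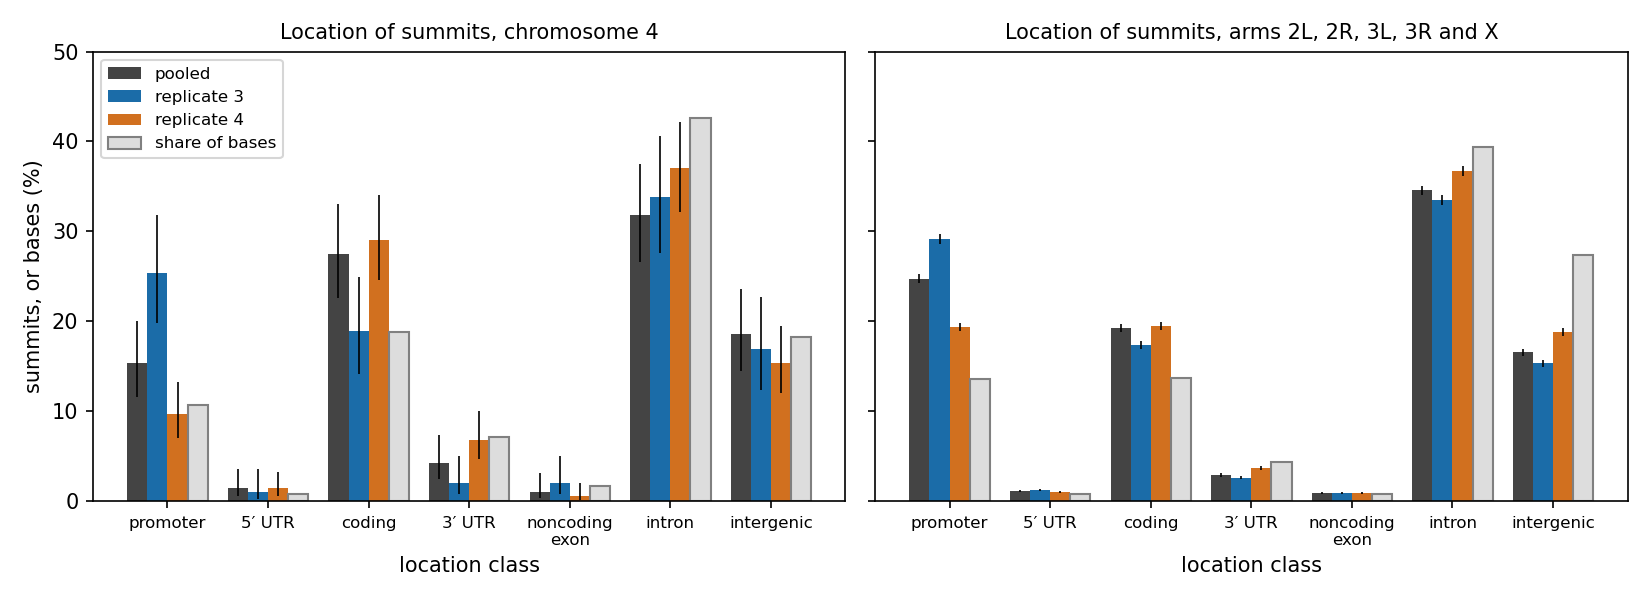
Share of summits in each location class on chromosome 4 (left) and on the other 5 arms together (right), for the pooled list and each replicate, beside the share of bases in the class. Lines are 95% Wilson intervals. On chromosome 4 the promoter share is 25.37% in replicate 3 and 9.687% in replicate 4.

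Among the 80 protein-coding genes of chromosome 4, 32 (40%, 29.96 to 50.95) had a candidate summit within 500 bp of a start. On all arms together it was 42.5% of protein-coding genes, which lies inside that interval. Replicate 3 by itself marked 28 (35%, 25.45 to 45.92), beside 47.4% of all protein-coding genes, which lies above the interval. Replicate 4 marked 23 (28.75%), beside 34.3%. An optimal peak lay at 1 of the 80 (1.25%, 0.221 to 6.746), pan. The share of all protein-coding genes, 4.9%, lies inside that interval. Within gene bodies, 68 of the 80 (85%, 75.59 to 91.21) held at least 1 candidate summit, beside 54.9% of all protein-coding genes. The genes of chromosome 4 are also longer, with a median length of 10090 bp beside 2156 bp on the other arms, and the part of length was not tested. The most summits were in unc-13 (13), which encodes a synaptic vesicle priming factor, zfh2 (10), Sox102F (10), bt (9) and dati (8). Counts per gene were not scaled by length.

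Promoter candidates at signalling genes covered a wide range of scores, all but that of pan below the optimal list. Of 6 listed genes for Wnt, Hedgehog and TGF-beta signals, 5 had a promoter candidate. Next to pan at 82.36, the transcription factor of Hedgehog signalling, ci, had a pooled score of 38.47 (rank 4980) with 29.7 in replicate 3 and no entry in replicate 4. The activin-type ligand gene Actbeta had 36.35 (rank 5863), with 22.51 in replicate 3 and 21.55 in replicate 4. Both ci and Actbeta lay above the upper quartile of the chromosome (31.19). The TGF-beta family ligand gene myo and lgs had 24.7 and 24.09, below the median of the chromosome, and mav, another ligand gene of that family, had none.

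Among 16 listed transcription factor genes, pan and ci included, 7 had a promoter candidate. Sox102F (66.19) had entries in both replicates. The Pax6 gene ey had a pooled score of 32.35 with 20.3 in replicate 3 and none in replicate 4, and dati had 34.01 with 20.43 and none. The Polycomb recruiter gene pho had 27.76 with 20.43 and none in replicate 4. Mitf, which encodes a basic helix-loop-helix factor, had 35.97 with none in replicate 3 and 25.5 in replicate 4. The other 9 genes, toy, sv, zfh2, onecut, fd102C, NfI, fuss, Taf3 and Hcf, had no promoter candidate, although toy, fuss and zfh2 flank the intergenic optimal peaks described above. Of the 7 genes with a candidate, pan and Sox102F had an entry in both replicates at their strongest one. A weaker promoter candidate of dati, 304 bp upstream of a start, had a pooled score of 29.41. It had entries in both replicates, with 10.43 in replicate 3 and 18.66 in replicate 4.

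The 3 listed genes of translation all had a promoter candidate. RpS3A had a pooled score of 49.03 (26.99 in replicate 3, 28.47 in replicate 4), and eIF4G1, which encodes an initiation factor scaffold, had 40.5 (28.66 and 17.87). The GW182 gene gw, whose product acts in microRNA silencing, had 36.14 (30.82 in replicate 3, none in replicate 4). Of 9 genes of axon guidance and the synapse, 2 had one, PlexA (27.02), a semaphorin receptor gene, and unc-13 (30.87). The muscle gene bt, which encodes projectin, had 21.59 with no entry in either replicate, and of 2 mitochondrial genes, ATPsynbeta and ND-49, neither had one. Each list holds 1 to 16 genes, and whether its count differs from the 40% of the chromosome was not tested.

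Base composition at the summits followed that of the chromosome. The median GC content within 50 bp of the 280 summits was 37.62% (quartiles 32.67 and 43.56), beside medians of 44.55% to 45.54% on the other arms. Chromosome 4 as a whole has 35.25% GC and the other arms 41.62% to 42.61%. The summits were thus 2.374 percentage points above their chromosome, within the 2.092 to 2.956 of the other arms. Bases soft-masked in the genome file as repeats or low complexity made up 19.83% of the regions and 27.79% of the chromosome, a ratio of 0.7137, within the 0.621 to 0.7367 elsewhere.

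Annotated transposons held a larger share of the summits on chromosome 4 than on any other arm. A transposon held 41 of the 280 summits (14.64%, 10.98 to 19.26), beside 133 of 29720 (0.4475%) on the other arms together and 0.2178% to 0.6795% on each. Chromosome 4 thus carried 23.56% of the 174 transposon summits of the genome with 0.9333% of its regions. Transposons cover 24.77% of the bases of chromosome 4 and 5.74% of the other arms. Relative to bases, the share at summits was 0.5911 on chromosome 4 and 0.05371 to 0.1267 on the other arms, so transposon sequence held fewer summits than its extent on every arm, and least so on chromosome 4. Transposons held 23 of 201 summits (11.44%) in replicate 3 and 55 of 351 (15.67%) in replicate 4. No optimal summit on chromosome 4 was in a transposon, and 0 of 7 allows a share of up to 42.86% (3 counts of the total).

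The family INE-1, a short non-autonomous element, supplied 22 of the 41 summits, with 13 in replicate 3 and 33 in replicate 4. Its 344 copies cover 7.221% of chromosome 4 and held 7.857% of its summits. Per Mb of INE-1 sequence this was 226 summits, beside 207.7 per Mb over the whole chromosome. The direction depended on the replicate, with 133.5 beside 149.1 in replicate 3 and 339 beside 260.4 in replicate 4. On the other 5 arms together, INE-1 held 68 summits, or 150.7 per Mb of INE-1 beside 224.2 over all sequence, and single arms ran from 123.2 to 214.8. The P-element relative 1360 held 5 summits on chromosome 4, or 97.89 per Mb of its sequence, beside 18.63 on the other arms. These rest on 5 and 6 summits, and each replicate had 2 on chromosome 4, or 39.16 per Mb of 1360. The family Cr1a held 5 as well. Every other family held at most 2, with a summit in overlapping copies counted under each family.

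**Figure D4:**
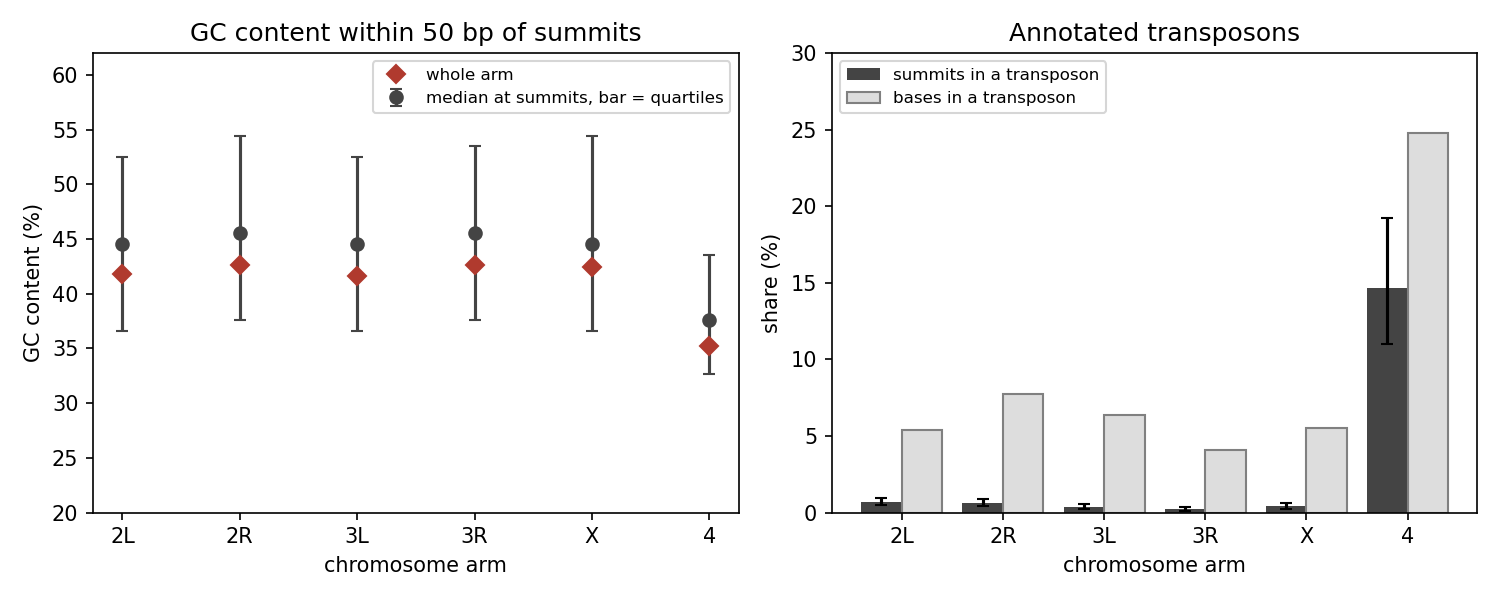
GC content within 50 bp of pooled summits by arm, as median and quartiles beside the value of the whole arm (left), and the share of summits in an annotated transposon beside the share of bases (right; lines are 95% Wilson intervals). Chromosome 4 summits have a median GC of 37.62%, and 14.64% lie in transposons that cover 24.77% of the bases.

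Short sequence words were searched within 50 bp of the summits, on both strands, in all 30000 windows. TATAAA was at 41 chromosome 4 summits (14.64%, 10.98 to 19.26, beside 9.093% of all windows). It was above the share of all windows in each replicate too, though in replicate 3 within counting error. The values were 12.94% (8.982 to 18.28) beside 9.297% in replicate 3 and 18.8% (15.06 to 23.22) beside 9.087% in replicate 4. AAAAAAA was at 32 (11.43%, 8.213 to 15.69, beside 7.507%), but its direction depended on the replicate, with 6.468% beside 7.393% in replicate 3 and 14.25% beside 7.673% in replicate 4. ATATATA was at 12 (4.286%, beside 2.67%, which lies within the interval of 2.468 to 7.34). The GC content of these windows is lower than elsewhere, as given above, and its part in these counts was not tested. Words of the CTCF type (AGATGGCG, AGAGGGCG, GGTGGCGC or GGGGGCGC, which can overlap) were at 1 of 280 (0.3571%, 0.06307 to 1.995), beside 1.617% of all windows. AGATGGCG itself was at none, and taking 3 counts of the total as the limit of a count of 0, this allows a share of up to 1.071%, beside 0.5133% of all windows. With 1 mismatch allowed, a search added after the data were seen, it was at 12 of 280 (4.286%, 2.468 to 7.34), beside 8.387% of all. In the optimal list it was at 2 of the 7 chromosome 4 peaks, the ones printed above, and at 161 of 1302 (12.37%). The E-box CAGCTG was at 15 (5.357%, beside 6.037%). CACGTG, the GAGA word GAGAGAG and the promoter word TATCGATA were at 2 each (0.7143%, 0.1961 to 2.567). Their shares of all windows were 1.367%, 1.63% and 0.5433%, which lie within that interval. The Zelda word CAGGTAG was at none of the pooled summits, beside 0.65% of all windows, but at 2 of 201 in replicate 3 (0.995%, beside 0.7233%) and at 4 of 351 in replicate 4 (1.14%, beside 0.5867%). A match in these windows describes the letters only.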

How the data were processed

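The data are ChIP-seq peak lists from 2 embryo samples of 1 group. The authors deposited, per sample and for both samples together, lists of regions with a signal score and a summit offset in bases (a unit of its own kind), and a thresholded optimal list, on dm6 and dm3. No scale of the deposited score is stated, and which aligner and peak caller were used is not given in the sources used here. On dm6 the optimal list equals the 1302 highest-scoring pooled entries, as tested on the files. A control library named by the submitters was not used here.

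Regions were matched to the Release 6 genome and the Ensembl release 115 gene annotation. Summits were assigned in the order promoter (500 bp or less from a start), 5′ untranslated region, coding, 3′ untranslated region, noncoding exon, intron, intergenic. Regions overlap when they share at least 1 bp. All optimal peaks, the 10 highest regions below them, the first 1302 entries of each replicate outside the optimal list, and the listed genes are named. For each listed gene the strongest promoter candidate is given, and 1 gene was matched through a synonym (bip2, annotated as Taf3). The members and lists were chosen with earlier results of these data known. The 1-mismatch search, the shares of gene bodies and of top replicate entries over all arms, the words shared by windows, the family values of transposons and the named gaps between genes were added after the data were seen. Shares carry 95% Wilson intervals, and the limit for a count of 0 is 3 counts of the total. Analyses used Python 3.11.15, numpy 2.4.6, pandas 2.3.3 and scipy 1.17.1, and the scripts were checked on simulated data.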

Additional observations from a re-analysis of the deposited data

How the results depend on the processing

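No paired analysis was possible because there is only 1 group. Each of 8 results was recomputed under up to 5 alternatives, 29 in all, of which 15 moved a value by less than 1 SD of the 2 replicates (for the share found in both replicates, within its counting interval; for the gene count, within 1.5 times) and 14 by more. The optimal share of chromosome 4 regions (2.5%) was 1.786% when the optimal list was cut at its median score (2.17% of all regions), 3.54% with the dm3 lists (8 of 226, beside 5.137% of all) and 3.419% to 3.98% for the first 1302 entries of single replicates. The share found in both replicates (31.07%) was 21.79% when the overlap had to cover 50% of the shorter region and 51.88% among the stronger pooled regions, those ranked above the list's median. On the other 5 arms these were 33.66% and 64.37%. The median GC content at summits (37.62%) was 36.7% over whole regions and 36.63% to 37.62% in single replicates. Genes with a promoter candidate (32) fell to 20 with a 200 bp window. The share of all protein-coding genes given above was for 500 bp, and no such share is given here for 200 bp. The share of summits with a CTCF-type word (0.3571%) was 1.786% with 100 bp on each side and 0.4975% to 0.5698% in single replicates. The 1.617% of all windows given above was for 50 bp on each side, and no such share is given here for 100 bp. Masked bases (19.83%) were 19.19% within 50 bp of summits and 19.89% to 20.46% in single replicates. The cause of these changes was not tested. Density and the promoter share moved by less than this SD, which is itself large, since they ranged from 149.1 to 260.4 per Mb and from 9.687% to 25.37% in single replicates. Single replicates were also among the alternatives, so there the SD came from the same values that it judged. Density on dm3 was not run, since no dm3 chromosome length was used here. Read numbers are not in the files, so the limit that depth sets is unknown.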

Other observations

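On the older build dm3, for which the authors deposited separate lists, chromosome 4 held 226 of 25017 pooled regions, 200 regions of replicate 3 and 345 of replicate 4. The excess of replicate 4 over replicate 3 was thus present in the lists of both builds, which come from the same samples. The optimal list on dm3 held 8 chromosome 4 peaks, with scores of 3900, 603.1, 239.7, 218.9, 115.8, 90.9, 80.71 and 70.5. On dm6 the region next below the optimal list, upstream of Asator, had 69.31. Positions were not compared between builds.

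Some entries of the pooled list overlap each other. Merging them left 256 regions on chromosome 4, of which 7 (2.734%) held an optimal peak, beside 4.756% of all merged regions.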
